A study of Haliotis discus hannai with 24 samples.

Results

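The 150 genes described here are the most abundant genes among those that the organs held at similar levels in a survey of the abalone Haliotis discus hannai, a marine snail whose head and foot carry several kinds of sensory organ. They were chosen by their values, and the plots call them members. A count was divided by the library's total and multiplied by 1000000 to give counts on a common scale (CPM). Genes were kept when the highest of the 3 organ medians was under 2 times the lowest, and the 150 of these with the largest minimum CPM over all libraries were taken. They are 0.761% of the 19700 genes listed. Polyadenylated RNA had been sequenced from eyestalks, from cephalic tentacles on the head and from epipodial tentacles along the rim of the foot. The groups are left and right eyestalk, left and right cephalic tentacle, and left and right epipodial tentacle, with 4 libraries each and 24 in all. All animals carry the genotype label Aquaculture, each treatment label names the excision of an organ, and neither an age nor another treatment is given. The sides of the epipodial libraries follow the tissue label. The letters of their titles conflict with it, and the treatment label of those called left names a cephalic tentacle.

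Genes that most cells transcribe at high levels are often called housekeeping genes. In animals they usually include the genes for ribosomal proteins, translation factors, cytoskeletal proteins and enzymes of energy metabolism, and they serve as internal standards when expression is compared between tissues. The eyestalk carries the eye, and the tentacles sense touch and chemical cues, so the organs share skin, muscle and nerve beside their own sensory cells. The deposited tables do not pair gene identifiers with names, so none of the 150 genes can be assigned here to a ribosomal, cytoskeletal or metabolic role. Marker lists for photoreceptor, neuron, muscle, cilia and mucous cells could not be matched to identifiers for the same reason, and the organ labels were not checked against markers. At most 2 genes in each direction are given per comparison.

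The libraries were uneven. Total counts ran from 473072 to 4479096, and the number of genes with at least 1 count from 3682 to 11197. In 7 libraries fewer than 6000 genes had a count. These were left eyestalks 2 and 3, right eyestalk 1, left cephalic tentacles 1 and 2, and right cephalic tentacles 3 and 4, the digit being the replicate number of the title. In right eyestalk 2 a single gene outside the set, HDSC05049CG00020, took 70.8% of the counts. These 8 libraries are called the set-apart libraries below, and values are given with and without them where they matter. None of them is an epipodial library. Nothing in the labels says whether libraries came from separate animals, so a p-value reflects only how far these libraries varied, part of which may be technical.

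All 150 genes had counts in all 24 libraries, as only 1495 of the 19700 genes (7.59%) did. Their minimum CPM ran from 76.1 to 6609 with a median of 190, and the smallest count behind a minimum was 43. Mean CPM over the 24 libraries ran from 159 to 29713 with a median of 854. Per coding length, their mean FPKM, the deposited value corrected for coding length and library total, ran from 28.3 to 64524 with a median of 1159. The median coding length was 753 bases with a range of 138 to 8736. It was 603 bases over the 17233 genes with a count, and 828 bases over the 1345 other genes with a count in all libraries.

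HDSC03112CG00010 had the largest minimum and the largest mean CPM of the set. It lay at 6609, 25505 and 38809 CPM (lowest, median and highest of 8 libraries) in eyestalks, at 18790, 28484 and 37903 CPM in cephalic tentacles, and at 31694, 36972 and 42808 CPM in the epipodial tentacle. It was the most abundant gene of all in 8 libraries, 7 of them epipodial. HDSC39764CG00010 followed with organ medians of 18422 CPM in eyestalks, 18289 CPM in the cephalic tentacle and 22705 CPM in the epipodial tentacle. The lowest value of both genes was that of right eyestalk 2.

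At the other end, HDSC00188CG00180 was the last gene inside the threshold, with a minimum of 76.1 CPM, and HDSC07958CG00010 the first outside it, with a minimum of 74.8 CPM. The next minima were 77.7 and 80.9 CPM inside and 74.6 and 74.4 CPM outside, so no gap separates the set from the genes below it. The bound on the organs was as fine. The largest organ ratios inside were 1.98 in both cases, and the smallest outside were 2.02 and 2.03. Right eyestalk 2, where the single gene above diluted all others, set the minimum of 105 of the 150 genes.

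Together the 150 genes held a large share of each library. In the eyestalk they took 42.2%, 45.4%, 44.3% and 50.4% of the counts of left libraries 1 to 4, against 36.5%, 11.5%, 55.5% and 40.2% in right libraries 1 to 4. In the cephalic tentacle the shares were 60.1%, 47.2%, 35.6% and 46.7% on the left, against 38.6%, 57.1%, 53.3% and 65.7% on the right. In the epipodial tentacle they were 44.3%, 44.1%, 52.6% and 53.0% on the left, against 42.0%, 42.4%, 44.1% and 52.4% on the right. The sides overlapped in each organ. The lowest share, 11.5%, was that of right eyestalk 2, and it became 39.5% when the top gene of that library was left out of its total.

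**Figure D1:**
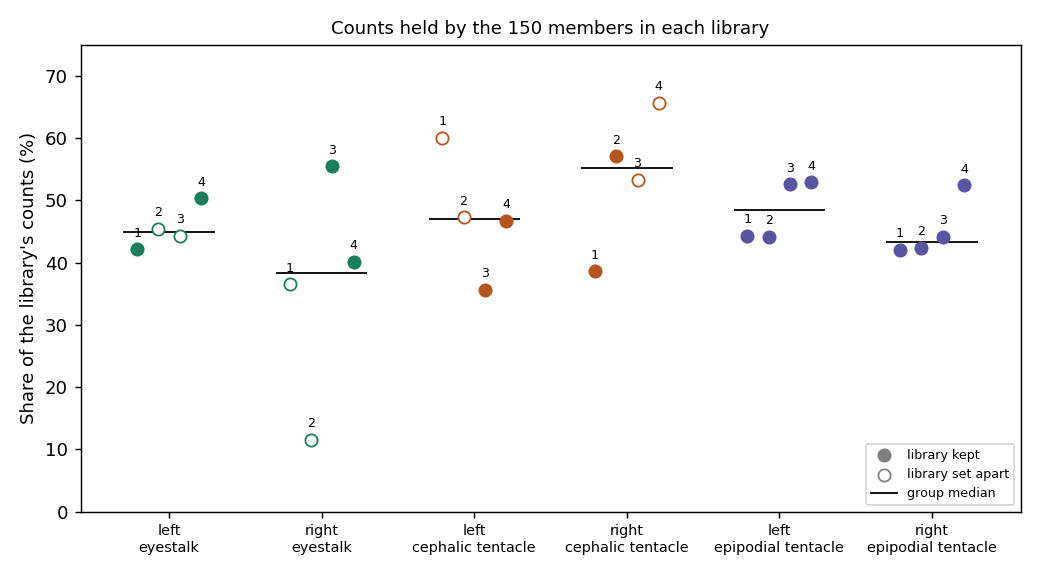
Share of all counts held by the 150 genes in each library, in percent, by organ with left libraries beside right ones; points are single libraries, open for the 8 set-apart libraries, and the lines are medians of 4. Right eyestalk 2 stands at 11.5%, all other libraries between 35.6% and 65.7%.

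The organ medians of this share were 43.2% in the eyestalk, 50.3% in the cephalic tentacle and 44.2% in the epipodial tentacle, over 8 libraries each. Without the set-apart libraries they were 46.3%, 42.7% and 44.2%, so the place of the cephalic tentacle in this order changed with those libraries. In the epipodial tentacle the left share was above the right share of the same number by 2.30, 1.74, 8.46 and 0.55 percentage points. This difference in shares was not tested.

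A few of the genes carried most of these counts. The 10 with the highest mean CPM held 40.0% of the summed mean CPM of the set, the 20 highest held 61.9% and the 50 highest 86.1%. The genes were not simply the top of each library. Between 69 and 92 of them were among a library's own 150 most abundant genes, and 80 were among the 150 genes of highest mean CPM over all libraries. Their median rank within a library ran from 114.5 to 176.

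A high minimum over all libraries favours even organs, since it removes genes that are low in any of them. Of the 208 genes whose minimum reached that of the set, 150 (72.1%) had an organ ratio under 2 and 58 did not. Of the 1495 genes with a count in every library, 50.6% had an organ ratio under 2. The 58 uneven genes had a median organ ratio of 2.53 and a largest one of 12.6. Their highest organ was the epipodial tentacle for 33, the cephalic tentacle for 17 and the eyestalk for 8.

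Within the bound that chose them, the 150 genes had organ ratios of 1.04 to 1.98 with a median of 1.47, and 84 were under 1.5. The highest organ median was epipodial for 81 genes, cephalic for 55 and that of the eyestalk for 14. The lowest was that of the eyestalk for 87, epipodial for 38 and cephalic for 25. The eyestalk includes right eyestalk 2, whose CPM values are all lowered by its top gene. HDSC03757CG00070 had the smallest organ ratio, 1.04. Its left eyestalks had 7825, 6887, 6020 and 9955 CPM, against 4719, 1517, 11125 and 8070 CPM in right eyestalks. Its epipodial tentacles had 7640, 8506, 8559 and 8459 CPM on the left, against 6710, 6604, 6367 and 7255 CPM on the right. The near-equal medians thus hide a wide spread in the eyestalk, and in the epipodial tentacle every left value lay above every right value. In a fit of the epipodial libraries alone with the replicate number as a block, the left-right log2 fold change was 0.49 (SE 0.18, edgeR adjusted p = 0.497) and did not pass. That fit rescaled the libraries beyond their totals, so its value is not the ratio of the CPM above. The median of the set in the same fit is given below.

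HDSC34931CG00010, with the largest organ ratio, had organ medians of 1324 CPM in eyestalks, 2358 CPM in the cephalic tentacle and 1189 CPM in the epipodial tentacle. Its libraries ranged from 465 to 4561 CPM in eyestalks, from 587 to 8084 CPM in cephalic tentacles and from 759 to 2582 CPM in epipodial tentacles, and the 3 ranges overlapped.

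The choice was repeated on some of the libraries and read in the others. Each repeat chose its own 150 genes at its own threshold, where the set described here has a minimum of 76.1 CPM. Only part of them are in this set, as given in the last section. The repeats thus describe the rule rather than these genes. When 150 genes were chosen by the same rule on replicate numbers 1 and 2, with a threshold of 32.4 CPM, 136 of them (90.7%) also had an organ ratio under 2 in numbers 3 and 4, where the median ratio was 1.35. Of the 7927 genes with a positive median in every organ of numbers 3 and 4, 37.9% were that even. Neither this background nor the one given below was held to the threshold, so the comparison is not matched for level. Genes past the same threshold that were uneven in numbers 1 and 2 were even in the others in 180 of 271 cases (66.4%). When the genes were chosen on numbers 3 and 4, with a threshold of 150 CPM, 72 of 150 (48.0%) were even in numbers 1 and 2, at a median ratio of 2.07, against 13.4% of 6410 genes in the background and 2 of 38 uneven genes (5.26%). Numbers 1 and 2 hold 5 of the 8 set-apart libraries. How far these libraries set the lower repeat rate was not tested.

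Single libraries were less alike than the organ medians. The ratio of the highest to the lowest of 24 CPM values ran from 2.75 to 148 with a median of 6.83. It was above 4 for 131 genes and above 10 for 38, and under 2 for 0. Without right eyestalk 2 alone the median was 3.99. Over the 16 libraries that were not set apart it was 2.58, with 29 genes under 2 and 24 above 4. The label "evenly shared" therefore fits the organ medians by construction, but not the single libraries.

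HDSC00083CG00150 had the lowest SD of log2 CPM over all libraries, 0.38. Its values were 164, 216 and 338 CPM (lowest, median and highest of 8) in eyestalks, 146, 221 and 471 CPM in cephalic tentacles and 196, 211 and 282 CPM in the epipodial tentacle. Its highest library, right cephalic tentacle 2, had 3.22 times the value of its lowest, right cephalic tentacle 4. At the other extreme, HDSC12328CG00010 had an SD of 2.28, and its values are given with the replicate numbers below.

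The spread differed between organs. The SD of log2 CPM over the 8 libraries of an organ had a median over the 150 genes of 0.83 in the eyestalk, 0.56 in the cephalic tentacle and 0.27 in the epipodial tentacle. The epipodial SD was below the eyestalk SD for 148 of 150 genes and below the cephalic SD for 138. When libraries were scaled by the genes themselves, which removes a shift shared by the set, the medians were 0.53, 0.53 and 0.26. Without the set-apart libraries they were 0.34 from 4 eyestalk libraries, 0.41 from 4 cephalic libraries and 0.27 from 8 epipodial libraries. Leaving out right eyestalk 2 alone brought the eyestalk value to 0.50. With TMM factors, a scaling that takes the bulk of all genes as constant, the cephalic value of 0.94 lay above the eyestalk value of 0.73, so the order of these 2 organs depends on the scaling. The epipodial tentacle had the smallest value under each of these settings.

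**Figure D2:**
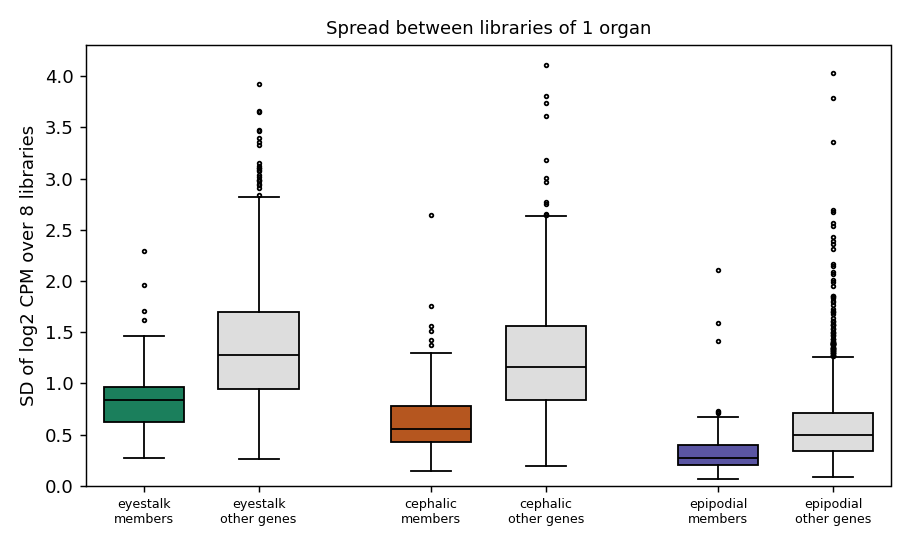
SD of log2 CPM over the 8 libraries of each organ, for the 150 genes beside the 1345 other genes with a count in all libraries; boxes span the quartiles with the median as a line, whiskers reach the last gene within 1.5 box lengths and points lie beyond. The medians of the 150 genes were 0.83, 0.56 and 0.27 in eyestalk, cephalic and epipodial tentacle, against 1.28, 1.16 and 0.50 for the other genes.

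The other 1345 genes with a count in all libraries showed the same order, with median SDs of 1.28 in the eyestalk, 1.16 in the cephalic tentacle and 0.50 in the epipodial tentacle. Because the rule asks for a high minimum, it favours genes with little spread, and no test was made between the sets. The 58 uneven genes at the same minimum had median SDs of 1.04, 1.01 and 0.34. In edgeR's model, the biological coefficient of variation had a median of 0.64 over the 150 genes, against 1.06 over all 7341 genes tested. In the epipodial tentacle alone, with the replicate number in the model, it was 0.19 for the 150 genes, against 0.25 for the 5740 genes tested there.

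The order of the genes among themselves was largely kept. Over all 276 pairs of libraries, Spearman's rho of the 150 CPM values had a median of 0.87 and a range of 0.69 to 0.99, the lowest for right eyestalk 2 with right cephalic tentacle 4. It was 0.81 at the least between libraries that were not set apart. These correlations are across genes, which are not independent replicates, and the spread of levels within the set, fixed partly by the rule, sets much of their size.

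Beneath this order the genes shifted in blocs. After scaling by the set itself, 1 axis of a principal component analysis held 38.1% of the variance of log2 CPM, and the libraries with few genes detected lay towards its upper end, with some overlap. The 50 genes at its upper end held 24.4% to 47.9% of counts in the 7 libraries with fewer than 6000 genes, against 5.18% to 34.7% in the 17 others. The 50 genes at its lower end held 3.93% to 7.51% in those 7, against 2.60% to 11.6% in the others. Right eyestalk 2, diluted by its top gene, gave the lowest value of the others at both ends. The next lowest were 15.1% at the upper end (left cephalic tentacle 3) and 8.32% at the lower end (right cephalic tentacle 2). The ratio of the upper to the lower end was 3.83 to 8.84 (median 6.22) in the 7 libraries and 1.41 to 4.18 (median 2.09) in the others. The median coding length was 598.5 bases at the upper end and 1060.5 bases at the lower end. The ends also differed in level, with a median mean CPM of 1880 at the upper end and 624 at the lower end. These ends were picked from the same values, so no test was made.

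**Figure D3:**
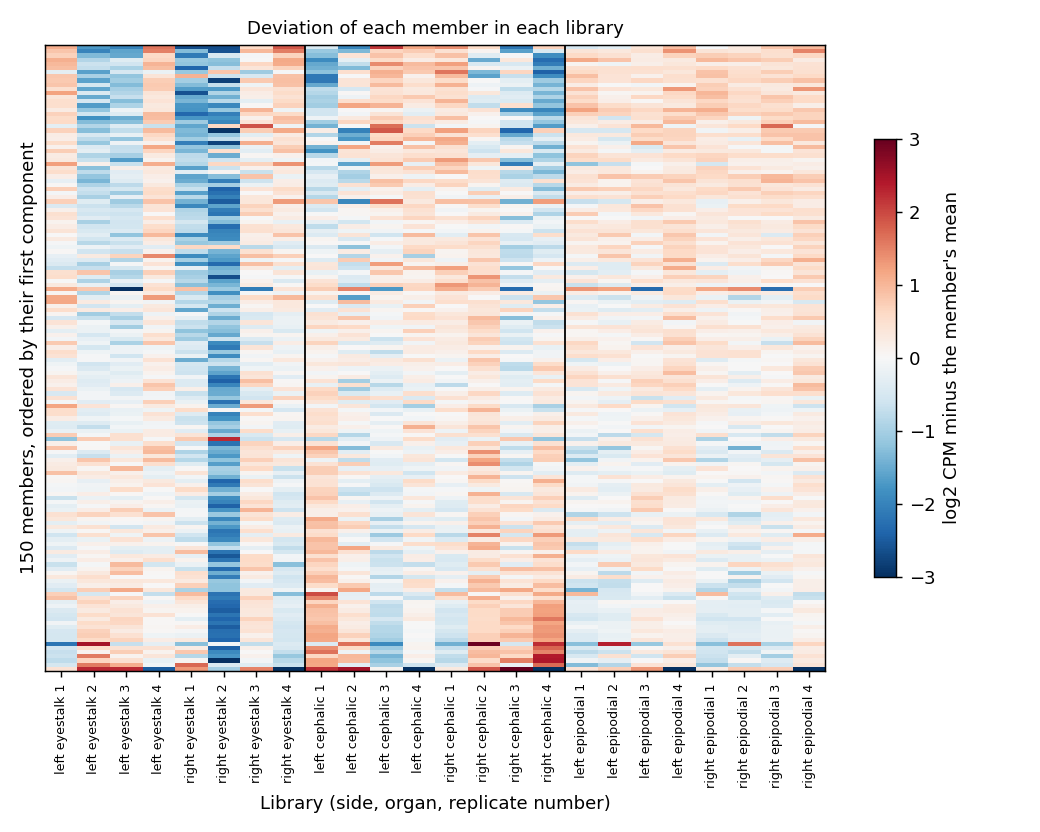
Log2 CPM of the 150 genes (rows, ordered by their place on the first axis) in 24 libraries (columns, by organ with left before right), each minus the gene's own mean over libraries. The 7 libraries with fewer than 6000 genes are lower towards the top of the plot than towards its bottom, and right eyestalk 2 is low for most genes.

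A split by coding length, not matched for level, showed a like pattern. The 75 shorter genes, of at most 747 bases, held 1.16 to 1.66 times the counts of the 75 longer ones, of at least 759 bases, in the set-apart libraries (median 1.27), and 0.931 to 1.29 times in the other 16 libraries (median 1.09). The ranges overlapped. In the cephalic tentacle the shorter genes took 17.2% to 41.0% of counts and the longer ones 18.4% to 25.0%, so the variation of the share in that organ lay mostly in shorter genes. It also lay in the abundant genes. The 50 of highest mean CPM took 28.3% to 59.8% there, and the 50 of lowest mean CPM 1.32% to 2.35%. Length and level were not separated. What part the number of genes detected had in this was not tested. In bulk tissue, fewer cells of a type and less RNA per cell cannot be told apart.

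The sides of the body were not used to choose the genes, although the minimum over all libraries limits how far any library could fall. Left and right were compared with edgeR's quasi-likelihood test over all 24 libraries and 7341 genes, among them all 150. At a Benjamini-Hochberg adjusted p under 0.05, 0 of the 150 genes passed in the eyestalk, 0 in the cephalic tentacle and 0 in the epipodial tentacle, where 0% of all genes tested passed in each. At an unadjusted p under 0.05 the counts among the 150 genes were 4, 0 and 0, against 2.45%, 1.36% and 0.0545% of all genes tested. DESeq2 called 0 of the 150 genes in each organ, and so did limma on log2(FPKM + 1). None of the 150 passed in the 3 tests of whether the left-right difference itself differed between organs, where 0% of all genes passed. Unadjusted, 2 passed for eyestalk against cephalic tentacle (2.47% of all genes), 0 for eyestalk against epipodial tentacle (0.872%) and 0 for cephalic against epipodial tentacle (0.681%).

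The median log2 fold change of the 150 genes, left over right, was -0.07 in the eyestalk, -0.41 in the cephalic tentacle and 0.24 in the epipodial tentacle, where the median of all genes tested was -0.12, -0.00 and 0.03. The sign of these medians moved with the scaling, as did that of all genes. With library totals alone they were 0.31, -0.05 and 0.02, with all genes at 0.26, 0.25 and -0.17, and with factors from the set itself they were -0.03, 0.01 and 0.02, with all genes at -0.10, 0.33 and -0.16. Factors from the set bring its own median near 0 by construction. Under each of these 3 scalings the median of the set lay above that of all genes in the eyestalk and the epipodial tentacle. In the cephalic tentacle it lay below. A change of scaling shifts all genes of a contrast by about the same amount, so the 3 scalings do not test this order separately. Without the set-apart libraries, under TMM factors, the medians of the set were -0.34, -0.60 and 0.21, with all genes at -0.01, 0.12 and 0.00, so the eyestalk then lay below.

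The largest differences in the eyestalk were as follows. Fitted values here and below use TMM factors unless another scaling is named, while the CPM listed beside them use library totals alone. HDSC34931CG00010 had 989, 4561, 1660 and 1995 CPM in left eyestalks, against 859, 465, 1696 and 709 CPM in right eyestalks, which edgeR fitted as a log2 fold change of 1.09 with an SE of 0.79 and an adjusted p of 1. HDSC01015CG00050 had 613, 403, 573 and 470 CPM in left eyestalks, against 252, 1154, 2790 and 677 CPM in right eyestalks, with a log2 fold change of -1.83, an SE of 0.68 and an adjusted p of 1 from the same fit. The sides overlapped for both genes, and the value of HDSC34931CG00010 was 0.13 without left eyestalk 2 alone and -0.26 without the set-apart libraries.

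In the cephalic tentacle, HDSC04415CG00010 had 559, 2318, 198 and 778 CPM on the left, against 274, 5706, 516 and 3422 CPM on the right, and the log2 fold change was -2.25 with an SE of 1.25 and an edgeR adjusted p of 1. The largest value in the other direction was 0.26 (SE 0.51, edgeR adjusted p = 1), for HDSC00212CG00110. Its left libraries had 109, 657, 316 and 534 CPM and its right libraries 402, 213, 307 and 107 CPM. Its log2 fold change ran from 0.08 without left cephalic tentacle 4 to 0.46 without left cephalic tentacle 1. It was also moved by over 1.5 times without left cephalic tentacle 2 (0.11), left cephalic tentacle 3 (0.45) or right cephalic tentacle 4 (0.16). Both genes overlapped between the sides. The TMM factors of the cephalic libraries ran from 0.50 (right cephalic tentacle 4) to 1.71 (left cephalic tentacle 3). The fitted values therefore differ from the ratios of the CPM listed.

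The interval of each difference says how closely the sides were bounded. In the model of all libraries, the 95% interval lay wholly within a 2-fold difference for 1 gene in the eyestalk (0.0272% of all genes tested), 4 in the cephalic tentacle (0.0954%) and 1 in the epipodial tentacle (0.0409%). It lay within a 4-fold difference for 135 of 150 genes in the eyestalk, where 14.8% of all genes did, for 123 in the cephalic tentacle, where 13.4% did, and for 145 in the epipodial tentacle, where 19.1% did. Higher counts narrow the interval and the rule chose high counts, so these shares are not a property of the genes alone. The cephalic count was 70 without left cephalic tentacle 1. Differences under 2-fold could not be resolved for most of the genes in this model.

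The epipodial tentacle was bounded more closely in a fit of its 8 libraries alone, where the interval lay within a 2-fold difference for 94 of 150 genes and for 22.9% of the 5740 genes tested. Left and right epipodial libraries of the same number deviated together from their group means (correlations of 0.84, 0.81, 0.86 and 0.91 over the 150 genes). With the number as a block in that fit, the interval lay within 2-fold for 150 of 150 genes, where 58.9% of all genes did. With the block in the fit to all 24 libraries it did so for 0 of the 150 and for 0 of all genes. The blocked fit called 0 of the 150 genes, where 0.0174% of all genes passed, and 20 had an unadjusted p under 0.05, where 7.58% of all genes did. The median log2 fold change was 0.21, with all genes at 0.01.

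HDSC34931CG00010 had the largest epipodial difference, with 1111, 2113, 1027 and 2582 CPM on the left, against 992, 1268, 759 and 2079 CPM on the right. The left value was higher in 4 of 4 numbers, and the log2 fold change with the block was 0.60 (SE 0.18, edgeR adjusted p = 0.345). In the other direction, HDSC00857CG00050 had 150, 91.4, 110 and 181 CPM on the left, against 225, 113, 95.1 and 250 CPM on the right. Its log2 fold change over all libraries was -0.15 (SE 0.63, edgeR adjusted p = 1.00), and it was 0.16 without right epipodial tentacle 4. With the block it was -0.11 (SE 0.20, edgeR adjusted p = 0.960). The value of HDSC34931CG00010 over all libraries was 0.61 with an SE of 0.78, so the narrower SE comes from the blocked fit.

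**Figure D4:**
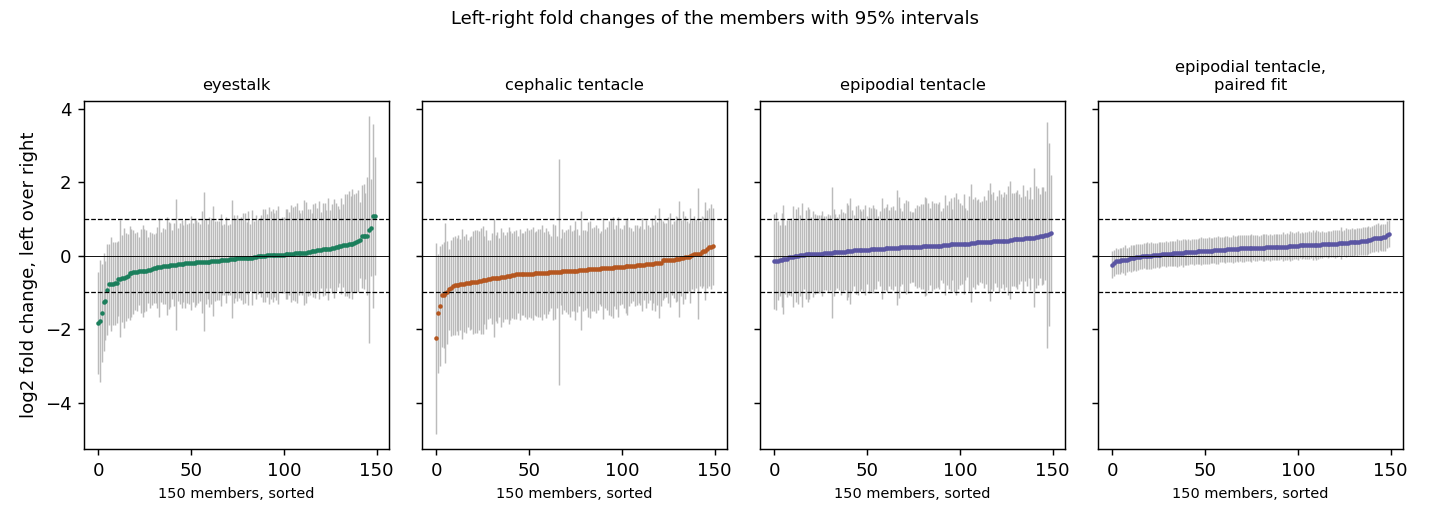
Log2 fold change, left over right, of the 150 genes in each organ, each point 1 gene with its 95% interval from edgeR's fit to all 24 libraries, ordered by size; the dashed lines mark 2-fold, and the last panel shows the epipodial tentacle fitted alone with the replicate number as a block. The values over all libraries run from -1.83 to 1.09 in the eyestalk, -2.25 to 0.26 in the cephalic tentacle and -0.15 to 0.61 in the epipodial tentacle.

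A further difference ran along the replicate numbers rather than the organs or sides. It was noticed in the values and then tested on the same libraries, as a joint edgeR test of the 4 numbers beside the 6 group means. It called 4 of the 150 genes (2.67%) at an adjusted p under 0.05, where 12.9% of all 7341 genes were called. In the epipodial libraries alone it called 86 of the 150 (57.3%), where 48.7% of all genes were called, and without the set-apart libraries 12 (8%), where 21.4% were. The share of the set was below that of all genes over all libraries and above it in the epipodial tentacle, and no test was made between the set and the rest. The minimum over all libraries in the rule limits how far a gene of the set could fall in any number. The shares are therefore not matched.

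HDSC12328CG00010 was low in number 4. Its left and right eyestalks of that number had 281 and 106 CPM, its cephalic tentacles 143 and 132 CPM and its epipodial tentacles 98.8 and 136 CPM. The 18 libraries of numbers 1 to 3 had 785, 3342 and 14657 CPM (lowest, median and highest). No library of number 4 reached any of the others, and each value of number 4 rested on at least 150 counts. The log2 fold change of number 4 against number 1 was -4.86 (joint edgeR adjusted p = 1.59e-06), and it ran from -5.22 to -4.15 when 1 library was left out.

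HDSC24783CG00010 was low in number 3 in the same way. Its left and right eyestalks of that number had 136 and 294 CPM, its cephalic tentacles 383 and 254 CPM and its epipodial tentacles 252 and 260 CPM. Over the other numbers the lowest value was 588 CPM and the highest 3561 CPM. The log2 fold change of number 3 against number 1 was -3.27 (joint edgeR adjusted p = 8.82e-06). Both genes had organ medians within 2-fold of each other, and every organ holds each number on both sides.

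The other 2 called genes had their highest medians in numbers 2 and 3. HDSC04415CG00010 had 4196 and 709 CPM in left and right eyestalks of number 2, 2318 and 5706 CPM in its cephalic tentacles and 3725 and 2273 CPM in its epipodial tentacles, against a median of 309 CPM in number 1. Its values overlapped those of other numbers, as right cephalic tentacle 4 had 3422 CPM, and the log2 fold change of number 2 against number 1 was 3.06 (joint edgeR adjusted p = 0.000277). HDSC01015CG00050 had medians of 659, 895, 1917 and 575 CPM in numbers 1 to 4. Its number 3 libraries ran from 493 to 2790 CPM and overlapped the others. The log2 fold change of number 3 against number 1 was 1.57 (joint edgeR adjusted p = 0.0156). The call of this gene was lost without right epipodial tentacle 3 and with library totals alone.

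**Figure D5:**
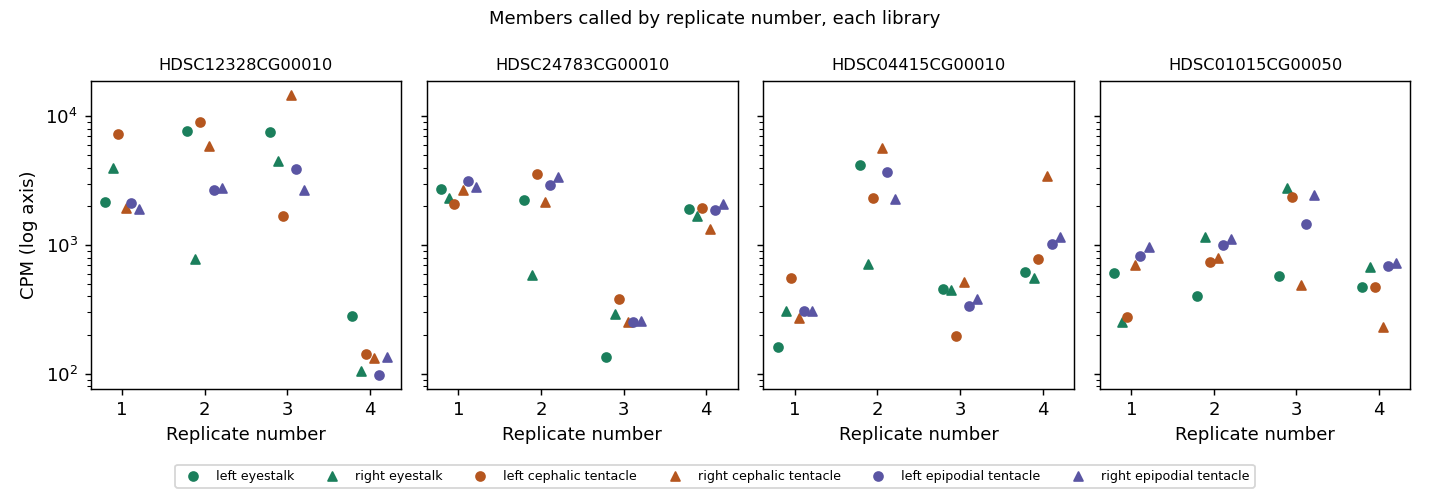
CPM on a log axis of the 4 genes called between replicate numbers, 1 panel each, with the 6 libraries of each number as points, coloured by organ, left as circles and right as triangles. All 6 libraries of number 4 lie below the 18 others for HDSC12328CG00010, and all 6 of number 3 for HDSC24783CG00010.

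All 6 libraries of a number lay below, or all above, the 18 others for these 2 genes of the 150, HDSC12328CG00010 and HDSC24783CG00010, where 1.76% of all genes tested did so. Among the 16 libraries that were not set apart, each number has fewer than 6 libraries, so a number lies apart more easily. There the remaining libraries of a number lay below, or all above, the rest for 15 of the 150 genes, where 11.5% of all genes did so. The minimum in the rule bears on these shares too. Whether a number stands for an animal, a day or a lot of libraries is not given in the labels, and these cannot be told apart.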

How the data were processed

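The authors deposited raw read counts and FPKM values for each gene. Fastp, HISAT2 and HTSeq are named in the submitters' processing notes. Their versions, the genome build and the strandedness were not given in the sources used here, so overlapping genes and near-identical copies are uncertain. The deposited FPKM values follow from the counts and a coding length, which was whole within 0.001 for 100% of genes. All libraries carry the same batch label.

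CPM, organ medians and minima were computed from the counts. Tests used edgeR 4.0.16 in R 4.3.3 (filterByExpr over 6 groups, TMM factors, robust quasi-likelihood fit of 6 group means, Benjamini-Hochberg adjustment over 7341 genes). DESeq2 1.42.0, limma 3.58.1 on log2(FPKM + 1) and log2(FPKM + 0.1), other scalings, no filter, replicate blocks and left-out libraries were alternatives. Code was tested on simulated counts. Depth is given as total counts, and an interval covers the spread in the model.

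Left and right epipodial libraries of a number were taken as paired, since their deviations from group means over all genes correlated at 0.77, 0.74, 0.68 and 0.77, each above the bound of 0.1. The labels give the number in the title only.

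The genes and the lists were chosen with earlier results of these data known. Named are the 2 genes of largest minimum and of largest mean CPM, those at the threshold, the extremes of SD and of organ ratio, and the largest left-right change in each direction and organ. The replicate number test and its genes were added after the values were seen. The gene lists for abundant shared genes and for cell types could not be matched, and sequences are not shown.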

Additional observations from a re-analysis of the deposited data

Results flagged for a closer look

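For the named genes of the set, its share of counts and the ratio of shorter to longer genes, 84 groups of 4 libraries were examined. A library was flagged when its gap to its nearest neighbour took more of the group's range than Dixon's 95% limit. In 3 groups (3.57%) this was so, where chance gives about 1 in 20, and all 3 were of named genes. HDSC00188CG00180 had 371 CPM in left eyestalk 1, against 309, 299 and 310 CPM in the other left eyestalks. HDSC03757CG00070 had 7640 CPM in left epipodial tentacle 1, below the 8506, 8559 and 8459 CPM of the other left epipodial tentacles. HDSC04415CG00010 had 4196 CPM in left eyestalk 2, against 163, 455 and 616 CPM in the other left eyestalks; left eyestalk 2 is among the libraries with fewer than 6000 genes detected, and the gene was called as high in number 2.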

How the results depend on the processing

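No alternative called any of the 150 genes between left and right in an organ or between organs. The number of genes with an interval within 2-fold moved most. With RLE factors it was 30 in the eyestalk, 29 in the cephalic and 36 in the epipodial tentacle, with library totals 7, 24 and 32, and with factors from the set 57, 56 and 71. It was 0 in each organ with no filter. Without the 8 set-apart libraries it was 6 in the eyestalk and 37 in the epipodial tentacle, and in an organ alone with no block 0, 0 and 94. With 1 library left out it ran from 0 to 6, 0 to 5 and 0 to 4. The 4-fold bound, added after the values were seen, gave 135, 123 and 145.

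With the replicate block over all 24 libraries the number within 2-fold was 0 in each organ, and with the block in an organ alone 0, 0 and 150. The block changed no other call. Same-numbered left and right eyestalks correlated at -0.13 to 0.61, and 6 of 8 eyestalk libraries correlated best with their own number. Cephalic sides correlated at -0.24 to 0.17, and 1 of 8 libraries did so. Neither organ had every number above the bound of 0.1 that the epipodial pairs passed. Part of the eyestalk libraries thus followed the number, and HDSC12328CG00010 and HDSC24783CG00010 followed it in all 3 organs.

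The choice of genes kept 84 of 150 with an organ bound of 1.5, which by construction are the 84 with an organ ratio under 1.5. It kept 81 on numbers 1 and 2 alone, 102 to 139 under the other planned settings, and 121 to 148 with 1 library left out. The median SD of log2 CPM in the eyestalk was 0.53 scaled by the set and 0.34 without the set-apart libraries, and 0.50 to 0.88 with 1 library left out, the lowest without right eyestalk 2. In the cephalic tentacle it was 0.94 with TMM factors.

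The replicate number test called 12 genes without the set-apart libraries and 86 in epipodial libraries alone, and 3 to 5 with 1 library left out. Genes apart in 1 number were 15 without the set-apart libraries, where each number has fewer libraries and lies apart more easily. HDSC34931CG00010 reversed to -0.26 in the eyestalk without them, and with 1 library left out it ran from 0.13 to 1.43 there and from 0.37 to 1.02 in the epipodial tentacle over all libraries. HDSC00857CG00050 in the epipodial tentacle ran from -0.32 to 0.16 with 1 library left out, reversing without right epipodial tentacle 4. The causes were not tested. The smallest count behind a value of the set was 43.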
